A study of Mus musculus with 5 samples.

Results

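GABA-A receptors are the chloride channels through which GABA acts on sensory neurons, and the cotransporters Slc12a2 and Slc12a5 set the chloride gradient that these channels use. The genes described are the 5 receptor subunits Gabra2, Gabra3, Gabra5, Gabrb2 and Gabrg1 and both cotransporters, 7 of the 17267 mouse genes counted. They were taken by name from this family, with earlier results of these data known, and each of them is given in all 14 annotated cell types. The cells came from lumbar dorsal root ganglia (DRG) of adult C57BL/6 mice aged 18 weeks, with 5 samples in 1 group. The animals were wild type, and no transgene or agent is named in the labels. Both sexes were used, and no library was assigned to a sex. Cells were captured in droplets with a 3′ single-cell assay, which tags the molecules it captures with unique molecular identifiers (UMIs), and every cell carries a type named by the authors. The comparisons are therefore between cell types of the same ganglia, and a library identifier in a cell's name was read as its mouse, which gave 5 libraries.

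The 14 types were 3 types of neurofilament-containing neurons (NF_Calb1, NF_Pvalb and NF2_Ntrk2.Necab2), 3 of non-peptidergic neurons (NP_Nts, NP_Mrgpra3 and NP_Mrgprd), 5 of peptidergic neurons (PEP3_Trpm8, PEP2_Htr3a.Sema5a, PEP1_Slc7a3.Sstr2, PEP1_Dcn and PEP1_S100a11.Tagln2), Th neurons, satellite glia and endothelial cells. NF neurons are known as large myelinated touch and position sensors, while NP and PEP neurons are mostly small nociceptors. The libraries held 164 to 1370 cells each and 3352 in all, of which 3047 were neurons, with 224553219 UMIs. Library 1 was the smallest and held only 3 NF2_Ntrk2.Necab2 and 3 endothelial cells. The median depth per cell lay between 16889 UMIs in endothelial cells and 105150 in NP_Mrgprd. The 5 neuronal markers summed to 11881 CPM (UMIs per 1000000 UMIs of a sum) in neurons and 544 in satellite glia, while the 6 satellite glia markers summed to 90189 CPM in satellite glia and 176 in neurons. A cell barcode occurred in more than 1 library 7 times, which touched 14 cells.

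A GABA-A receptor is a ring of subunits around a chloride pore. Most receptors combine alpha, beta and gamma subunits, and the alpha and gamma subunits shape their response to GABA and to benzodiazepines. Unlike most mature central neurons, DRG neurons hold chloride at a high level because Slc12a2 (NKCC1) carries it in together with sodium and potassium, so GABA depolarizes their terminals in the spinal cord. Slc12a5 (KCC2) carries chloride out together with potassium and is known for its role in mature central neurons.

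Levels are given as CPM of the UMIs summed over the cells of a type in a library, as mean ± SD over 5 libraries. A 3′ UMI count does not grow with transcript length, but the capture of each transcript is unknown, so levels are compared between types and not between genes. A type was called higher or lower than the other cells of the same libraries at an adjusted p under 0.01 and at least 2-fold, by the edgeR quasi-likelihood test with Benjamini-Hochberg adjustment. The authors drew the types from these same counts, so such a call describes how far a type stands apart over libraries and is not independent of how the types were made. The 7 genes and 14 types gave 98 pairs, of which 83 passed the filter on low counts. Among them 17 were called higher and 33 lower. Where a UMI was also required in at least 25% of the cells of the higher group, the 17 higher calls stood and 4 lower calls were left, 3 of Gabra2 and 1 of Slc12a2. Over all genes in the 14 comparisons, 9.32% of tests were called higher and 16.4% lower. No type of Slc12a5 passed the filter, and its values are given as counts.

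Gabrb2 encodes the beta 2 subunit, one of the beta subunits that form the GABA binding site together with an alpha subunit. Of its 2217 UMIs, 1958 lay in NF neurons, 123 in Th and 123 in PEP neurons. In NF2_Ntrk2.Necab2 the 5 libraries held 57.3, 111, 109, 140 and 135 CPM, with a mean of 111 ± 32.9. NF_Calb1 held 46.6, 57.2, 49.4, 79.8 and 79.9 CPM, with a mean of 62.6 ± 16.3. NF_Pvalb held 49.9, 46.4, 32.7, 28.0 and 38.7 CPM, with a mean of 39.1 ± 9.12. All 15 NF values stood above every value of the other 11 types, the closest being 28.0 CPM in an NF_Pvalb library and 11.1 CPM in a Th library. The order from NF2_Ntrk2.Necab2 over NF_Calb1 and NF_Pvalb to Th held beyond the SD of the paired differences at each step, though the libraries of NF2_Ntrk2.Necab2, NF_Calb1 and NF_Pvalb overlapped.

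Below the NF neurons, Th neurons held 8.34 ± 1.90 CPM of Gabrb2, PEP2_Htr3a.Sema5a 5.43 ± 2.41 and PEP3_Trpm8 3.48 ± 2.15. The other types held very few UMIs of it, 10 in all 3 NP types together and 8 in the 3 PEP1 types, with none in PEP1_S100a11.Tagln2, which allows a level at least 33.2-fold lower than in the other cells. Against the other cells Gabrb2 was higher by 4.08 ± 0.21 (log2, SE) in NF2_Ntrk2.Necab2, 3.34 ± 0.17 in NF_Calb1 and 2.08 ± 0.15 in NF_Pvalb. It was called lower in 9 types, and 2 of these calls were lost when 1 library was left out. The call in PEP3_Trpm8 (a log2 difference of -1.36 ± 0.34) was lost without library 1, 2 or 4 (-1.38, -1.43 and -1.54, with adjusted p over 0.01), and that in endothelial cells, from 2 UMIs, without library 1, 2, 3 or 5.

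Gabrg1 encodes the gamma 1 subunit, a gamma subunit that gives receptors of low sensitivity to classical benzodiazepines. It was detected at 805 UMIs and followed the same NF pattern with another order. NF_Calb1 held 30.1, 28.9, 21.1, 44.0 and 40.3 CPM (mean 32.9 ± 9.23), and NF_Pvalb held 15.3, 30.6, 21.0, 32.4 and 24.7 CPM (mean 24.8 ± 6.99). NF2_Ntrk2.Necab2 held 21.5, 13, 11.4, 13.8 and 12.1 CPM (mean 14.4 ± 4.10). NF_Calb1 and NF_Pvalb did not differ beyond their spread, and NF_Pvalb exceeded NF2_Ntrk2.Necab2 by more than the SD of the paired difference. Again the 15 NF values stood above all others, the closest being 11.4 CPM in an NF2_Ntrk2.Necab2 library against 2.15 in PEP2_Htr3a.Sema5a.

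Outside the NF neurons PEP2_Htr3a.Sema5a held the most Gabrg1, 24 UMIs at 1.46 ± 0.577 CPM. PEP1_Slc7a3.Sstr2 held 7 UMIs, all in library 5. Th and NP_Nts held 2 UMIs each and NP_Mrgprd 3, while NP_Mrgpra3, satellite glia and endothelial cells held none. The 0 UMIs place NP_Mrgpra3 at least 11.9-fold below the other cells and satellite glia at least 5.58-fold below, at 3 UMIs over the type. Gabrg1 was higher than in the other cells by 4.33 ± 0.21 (log2, SE) in NF_Calb1, 3.10 ± 0.22 in NF_Pvalb and 2.01 ± 0.21 in NF2_Ntrk2.Necab2, and it was called lower in 10 types.

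Promoter windows are shown for 4 subunits that stand for 3 patterns over types, Gabrb2 and Gabrg1 with their shared NF pattern, the broad Gabra2 and the patchy Gabra3. Each window runs from 250 bases before to 50 bases after a RefSeq start site on GRCm38.p6, 5′ to 3′ on the strand of the gene, and capitals mark motif matches on either strand. The windows lie at chr11:42420190-42420489 (plus strand, Gabrb2, the first of 3 start sites), chr5:70842568-70842867 (minus strand, Gabrg1), chr5:71095800-71096099 (minus strand, Gabra2) and chrX:72656870-72657169 (minus strand, Gabra3, the first of 2 start sites).
Gabrb2: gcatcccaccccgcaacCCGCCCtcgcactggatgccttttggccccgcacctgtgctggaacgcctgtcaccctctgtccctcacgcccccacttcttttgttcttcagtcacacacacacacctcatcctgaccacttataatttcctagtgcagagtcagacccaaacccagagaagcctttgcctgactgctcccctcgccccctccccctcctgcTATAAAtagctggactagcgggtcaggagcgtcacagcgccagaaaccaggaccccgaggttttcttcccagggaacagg
Gabrg1: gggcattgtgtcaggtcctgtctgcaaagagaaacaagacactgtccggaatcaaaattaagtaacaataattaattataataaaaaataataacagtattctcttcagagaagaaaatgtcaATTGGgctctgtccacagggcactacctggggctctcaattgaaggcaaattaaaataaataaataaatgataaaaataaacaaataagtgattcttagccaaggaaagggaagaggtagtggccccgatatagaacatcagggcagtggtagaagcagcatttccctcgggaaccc
Gabra2: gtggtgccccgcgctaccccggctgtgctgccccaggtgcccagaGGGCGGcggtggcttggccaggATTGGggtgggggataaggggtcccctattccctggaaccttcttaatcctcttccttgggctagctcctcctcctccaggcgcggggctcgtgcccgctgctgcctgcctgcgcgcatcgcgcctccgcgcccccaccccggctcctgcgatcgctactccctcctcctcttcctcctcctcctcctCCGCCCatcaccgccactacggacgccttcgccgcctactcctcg
Gabra3: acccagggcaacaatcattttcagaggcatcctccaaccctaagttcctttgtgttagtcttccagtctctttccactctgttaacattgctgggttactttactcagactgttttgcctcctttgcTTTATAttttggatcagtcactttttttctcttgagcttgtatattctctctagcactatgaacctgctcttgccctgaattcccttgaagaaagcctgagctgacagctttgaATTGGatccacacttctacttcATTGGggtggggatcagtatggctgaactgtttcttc
The motifs searched on both strands were TATAAA, held by 13.6% of 32544 windows, CCAAT, held by 37.4%, GGGCGG, held by 35.9%, TGTGGT, held by 16.7%, and AAGGTCA, held by 4.71%. The Gabrb2 window held TATAAA on its own strand from position -30 and a reverse match of GGGCGG. The Gabrg1 window held 1 reverse match of CCAAT, 3 CpG and 38.3% GC, where the median window had 53% GC and 7 CpG. The Gabra2 window was the richest of the 4, with 70% GC, 25 CpG, 2 GGGCGG and 1 CCAAT. The Gabra3 window had 43% GC, no CpG, a reverse TATAAA and 2 reverse matches of CCAAT. The letters TGTGGT and AAGGTCA matched in none of these windows, which says only that those letters are absent there.

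Gabrg1 and Gabra2 are neighbours on chromosome 5, and their levels were not alike. Gabrg1 lies at chr5:70751047-70842617 and Gabra2 at chr5:70957597-71095849, both on the minus strand of GRCm38, 115 kb apart with 0 protein-coding genes between them. Gabra4 and Gabrb1 follow in the same cluster. Gabra2 was counted in all 12 neuronal types, while Gabrg1 was nearly limited to NF neurons (r = 0.606 between both genes over the 14 types, a description over types that share libraries). Gabrb2 lies at chr11:42419757-42629028 on the plus strand, Gabra3 at chrX:72432681-72656848 on the minus strand, Gabra5 at chr7:57407672-57510059 on the minus strand and Slc12a5 at chr2:164960802-164999731 on the plus strand, each spanning exons and introns of the whole gene.

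**Figure D1:**
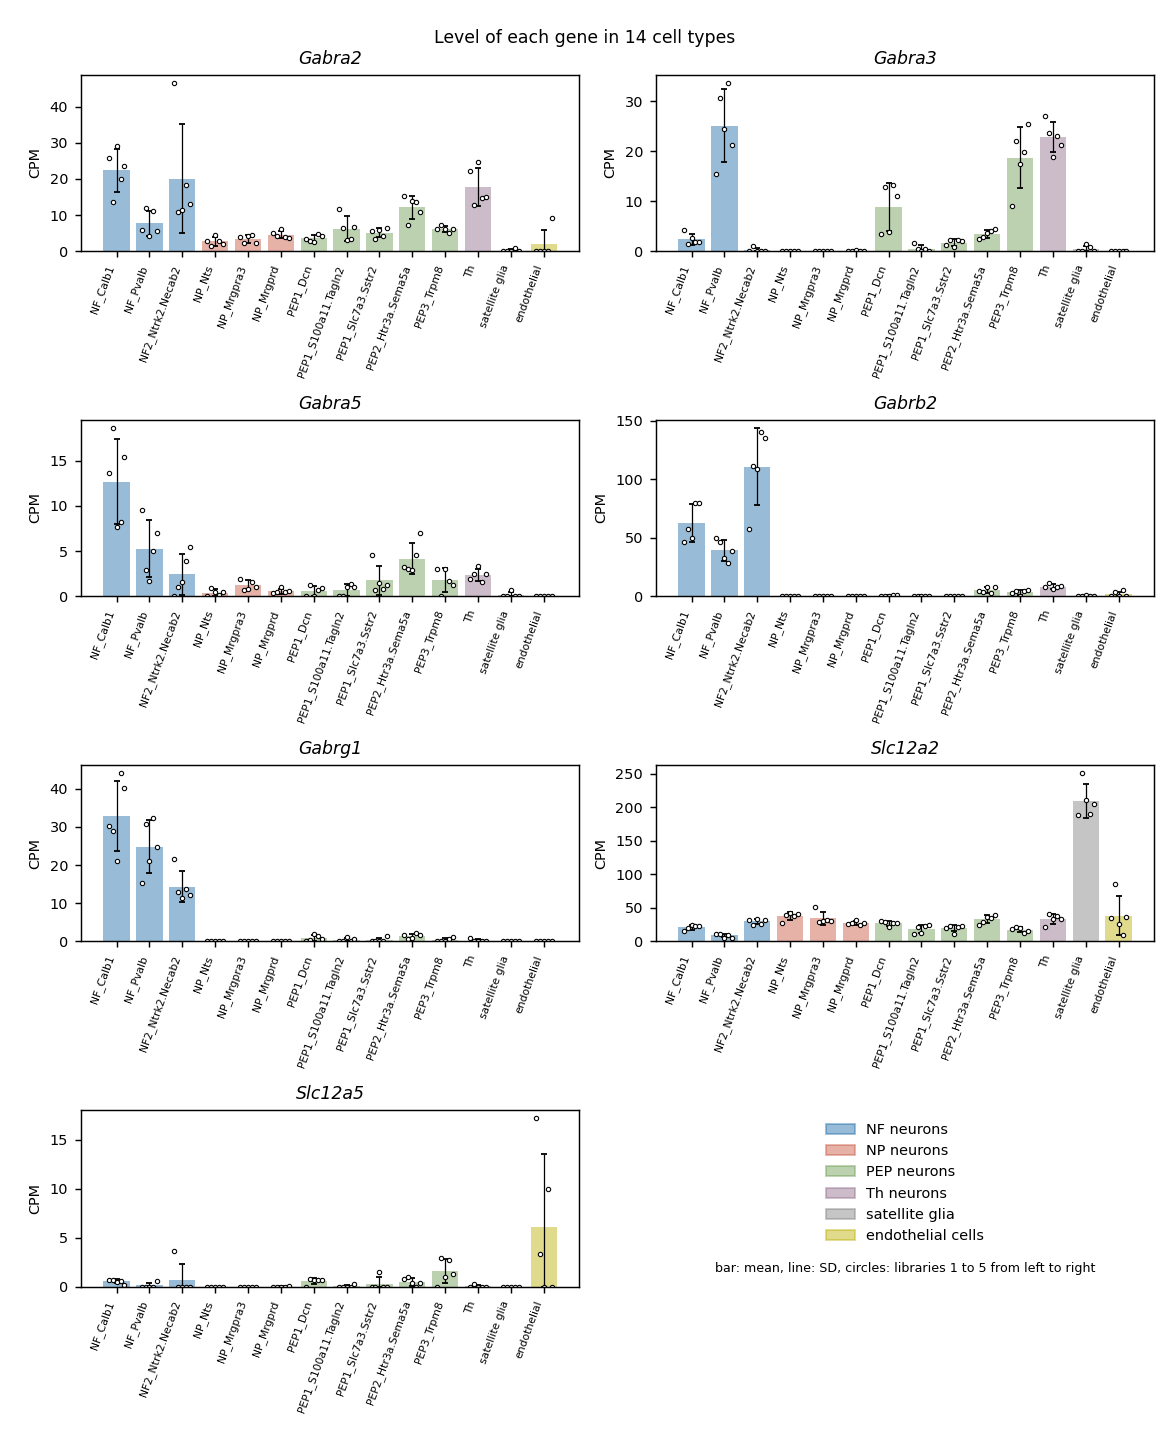
Level of each of the 7 genes in CPM (vertical axes, linear) in the 14 cell types, with bars for the mean over 5 libraries, lines for 1 SD and circles for libraries 1 to 5. Gabrb2 and Gabrg1 are tallest in the 3 NF types, Gabra3 in NF_Pvalb, Th, PEP3_Trpm8 and PEP1_Dcn, and Slc12a2 in satellite glia at 209 ± 25.2 CPM, while the tall endothelial bar of Slc12a5 rests on 4 UMIs.

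Of the alpha subunits, which largely set where a receptor sits and how it responds to drugs, Gabra2 is described first. Alpha 2 is known from axon initial segments and from pain circuits of the spinal cord. Its 1544 UMIs were spread over all neuronal types, with 1 UMI each in satellite glia and endothelial cells. NF_Calb1 held 25.8, 13.6, 29.0, 20.0 and 23.5 CPM (mean 22.4 ± 5.90), and Th neurons held 22.2, 12.7, 24.8, 14.7 and 14.9 CPM (mean 17.9 ± 5.28). NF2_Ntrk2.Necab2 held 46.6, 10.8, 11.4, 18.5 and 13 CPM (mean 20.0 ± 15.1), where library 1 stood apart with 13 UMIs in 3 cells, and its mean was 13.4 CPM without that library. NF2_Ntrk2.Necab2 lay between the other two in the order and differed from neither beyond the spread, while NF_Calb1 exceeded Th in 5 of 5 libraries, by 4.51 ± 2.76 CPM. PEP2_Htr3a.Sema5a followed at 12.2 ± 3.16 CPM, below Th by more than the SD of the paired difference.

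The other neuronal types ran from 7.70 ± 3.56 CPM of Gabra2 in NF_Pvalb down to 2.68 ± 1.15 in NP_Nts, where 52 UMIs were counted. NP_Mrgprd, the most numerous type, held 372 UMIs of Gabra2 at only 4.55 ± 1.04 CPM. Gabra2 was called higher in NF_Calb1 (log2 1.73 ± 0.21, SE), in Th (1.35 ± 0.23) and in NF2_Ntrk2.Necab2 (1.19 ± 0.31, adjusted p = 0.00492 by edgeR). The last call was lost without library 2, 4 or 5, where the log2 difference lay between 1.04 and 1.24. It was called lower in NP_Nts (-1.72 ± 0.29), in PEP1_Dcn (-1.12 ± 0.30) and in satellite glia. The call in PEP1_Dcn did not hold with a block for the library (-0.97, adjusted p = 0.0136 by edgeR) or without any 1 of the 5 libraries (-1.32 to -0.88).

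Gabra3 encodes alpha 3, a subunit known from monoaminergic neurons and early development. Of its 840 UMIs most lay in 4 types that belong to different classes of neuron. NF_Pvalb held 15.3, 30.6, 24.3, 33.6 and 21.3 CPM (mean 25.1 ± 7.30), and Th held 27.0, 23.6, 18.9, 23.0 and 21.2 CPM (mean 22.7 ± 3.0). PEP3_Trpm8, named for the cold-activated channel Trpm8, held 9.01, 22.0, 17.3, 19.9 and 25.3 CPM (mean 18.7 ± 6.17). PEP1_Dcn held 3.42, 12.7, 3.91, 13.2 and 11 CPM (mean 8.85 ± 4.81), so that libraries 1 and 3 were low there. The first 3 types did not differ beyond their spread. PEP3_Trpm8 exceeded PEP1_Dcn, and PEP1_Dcn exceeded PEP2_Htr3a.Sema5a at 3.43 ± 0.811 CPM, by more than the SD of the paired differences.

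In the other NF types Gabra3 was low, with 2.36 ± 1.17 CPM in NF_Calb1 and 1 UMI in all 58 cells of NF2_Ntrk2.Necab2. NP_Mrgprd held 8 UMIs in 900 cells. NP_Nts and NP_Mrgpra3 held none, which places them at least 29.4-fold and 12.4-fold below the other cells. Gabra3 was called higher in Th (log2 3.18 ± 0.16, SE), NF_Pvalb (2.98 ± 0.23), PEP3_Trpm8 (2.52 ± 0.24) and PEP1_Dcn (1.41 ± 0.28), and lower in 7 types. Schwann cell markers, 4 of 4 in the matrix, summed to 174 to 245 CPM in Th and to 3.84 to 28.7 CPM in NF_Pvalb, against 707 to 1464 in satellite glia, where Gabra3 had 3 UMIs. Their part in the values of Th was not tested.

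Gabra5, whose alpha 5 subunit is known from extrasynaptic receptors, was counted at 474 UMIs. NF_Calb1 held 13.6, 18.6, 7.63, 8.22 and 15.4 CPM (mean 12.7 ± 4.71). NF_Pvalb followed with 9.59, 2.96, 1.68, 4.98 and 7.01 CPM (mean 5.24 ± 3.16), and PEP2_Htr3a.Sema5a with 3.24, 3.05, 2.91, 4.60 and 6.96 CPM (mean 4.15 ± 1.71). NF_Calb1 exceeded NF_Pvalb by more than the SD of the paired difference, while NF_Pvalb and PEP2_Htr3a.Sema5a overlapped. The remaining types had means of at most 2.42 CPM, with 1 UMI in satellite glia and none in endothelial cells. Gabra5 was called higher in NF_Calb1 (log2 3.16 ± 0.26, SE), NF_Pvalb (1.30 ± 0.34) and PEP2_Htr3a.Sema5a (1.05 ± 0.29, adjusted p = 0.00778 by edgeR). The NF_Pvalb call was lost without library 1, 4 or 5 (log2 1.22, 1.17 and 1.01), and that of PEP2_Htr3a.Sema5a without library 2, 4 or 5 (1.19, 0.87 and 0.76).

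An exon of Gabra5 is overlapped on the opposite strand in the GENCODE annotation, by the antisense gene Gm9962 among others, and whether the counting used the strand is not given in the sources used here. Gm9962 has a row of its own, with 72 UMIs. Of these, 37 were in PEP1_Dcn and 8 in NF_Calb1, and Gabra5 had 7 and 193 UMIs in the same types. No exon of the other 6 genes is overlapped.

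Of the 17 pairs of member and type called higher than in the other cells, 11 were in the 3 NF types. In NF_Calb1, 4 of 6 tested members were higher, against 14.8% of all genes, and none lower, against 15.8%. In NF_Pvalb, 4 were higher, against 13.4%, and 1 was lower, against 17.5%. In NF2_Ntrk2.Necab2, 3 were higher, against 7.79%, and 1 was lower, against 13.5%. None of the tested members was called higher in the NP types, against 6.13% of all genes in NP_Nts, 5.82% in NP_Mrgprd and 3.12% in NP_Mrgpra3. In these types 5 were lower in NP_Nts, against 18.5%, 4 in NP_Mrgprd, against 21.7%, and 3 in NP_Mrgpra3, against 11.6%. Gabra3, Gabrb2 and Gabrg1 held at most 8 UMIs in any NP type and passed the filter through the other cells. Their lower calls thus mirror their levels elsewhere. With a UMI required in at least 25% of the cells of the higher group, only Gabra2 in NP_Nts stayed lower among the NP types.

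The PEP types and Th gave fewer higher calls. The PEP1_Dcn type had 1 higher member, against 6.87%, and 3 lower, against 8.28%. PEP2_Htr3a.Sema5a had 1 higher, against 8.74%, and 1 lower, against 10.6%. PEP3_Trpm8 had 1 higher, against 7.28%, and 2 lower, against 11.1%. In PEP1_S100a11.Tagln2 and PEP1_Slc7a3.Sstr2 none was higher, against 3.98% and 6.93%, and 3 were lower in each, against 8.36% and 12.1%. Th had 2 higher, against 7.06%, and 1 lower, against 13.9%. In satellite glia the 5 receptor subunits were all lower, against 32.5%, and Slc12a2 was higher, against 21.4%. These subunits held at most 3 UMIs each in satellite glia and passed the filter through the other cells. Their lower calls there thus mirror their levels elsewhere. The same holds for Gabrg1 in Th, with 2 UMIs, and for Gabrb2 and Gabrg1 in the PEP1 types, with at most 8 UMIs each per type. In endothelial cells Gabrb2 was called lower, 1 of 5 tested, against 34.2%, and none higher, against 17.4%. With the 25% requirement, only the lower calls of Gabra2 in PEP1_Dcn and in satellite glia stood among these types.

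**Figure D2:**
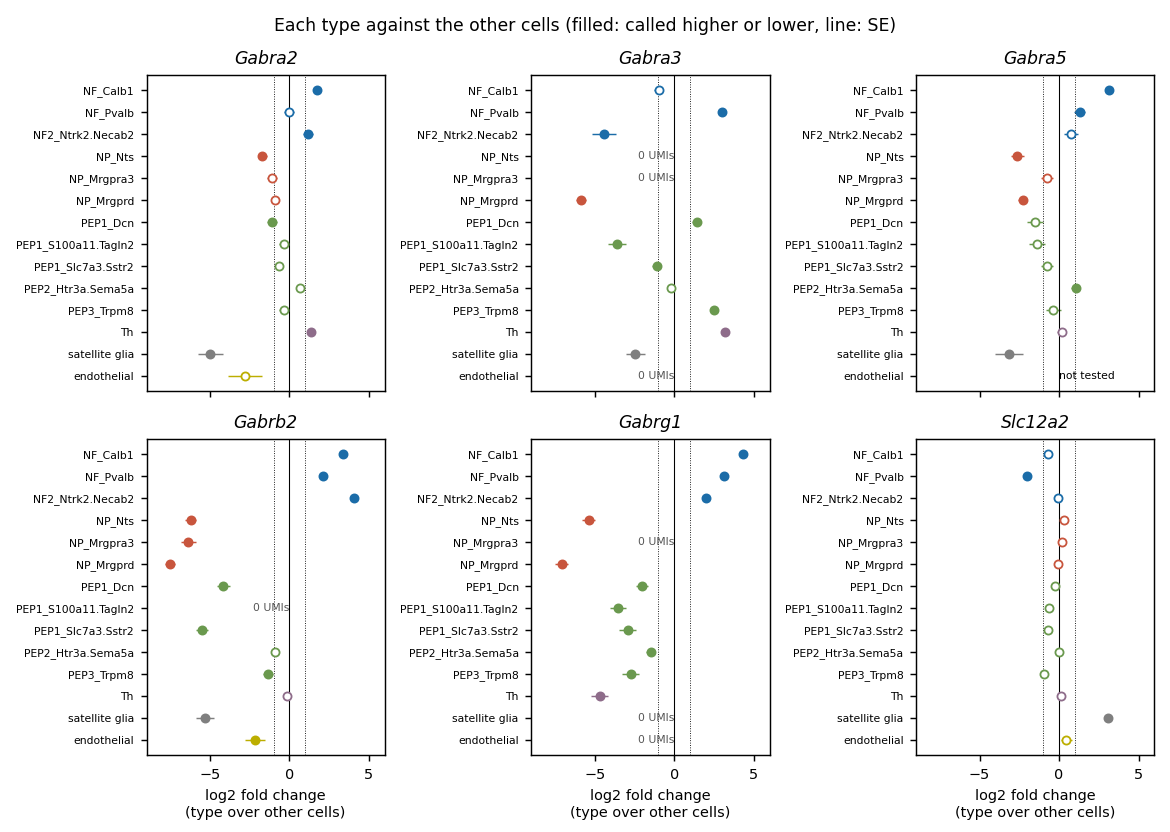
Log2 difference (horizontal axes) of each type against all other cells of the same libraries for the 6 genes that passed the filter, with lines for 1 SE, filled points for calls and dotted lines at 2-fold. The 3 NF points of Gabrb2 lie between 2.08 and 4.08 and those of Gabrg1 between 2.01 and 4.33, while pairs with 0 UMIs have no point.

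The classes were compared in 1 model of 60 sums, with the mean of 3 NF, 3 NP and 5 PEP types. In NF against NP neurons 6 of 6 tested members were called, 5 higher and 1 lower, against 33.8% of all genes (19.2% higher and 14.6% lower). Gabrb2 averaged 70.8 ± 13.8 CPM over the NF types and 0.0816 ± 0.0730 over the NP types, a log2 difference of 8.82 ± 0.24 (SE). Gabra5 averaged 6.78 ± 2.16 against 0.735 ± 0.0525 CPM (3.12 ± 0.29), and Gabra2 16.7 ± 5.46 against 3.54 ± 0.981 CPM (1.99 ± 0.18). The 5 subunits were higher in NF in each of the 5 libraries.

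Gabrg1 and Gabra3 were called higher too, but each has NP types with 0 UMIs, for which a mean of types has no lower bound. Gabrg1 averaged 24 ± 4.5 CPM in NF and 0.0212 ± 0.0294 in NP, and Gabra3 9.21 ± 2.20 and 0.0248. With UMIs summed over each class and library, an alternative chosen after seeing the data, the log2 differences were 8.88 ± 0.33 for Gabrg1 and 6.58 ± 0.37 for Gabra3, where 38.5% of all genes were called. The Gabra3 call of the type means was lost without library 2 and with sums of at least 10 cells, where it could not be fitted.

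Against the PEP types, 4 of 6 members were higher in NF neurons and none lower, against 11.4% and 13.3% of all genes (24.7% in either direction). Gabrg1 was higher by 5.01 ± 0.22 (log2, SE), Gabra5 by 2.05 ± 0.26 and Gabra2 by 1.22 ± 0.16. Gabrb2 averaged 1.90 ± 0.638 CPM in PEP neurons and was called higher in NF, by 4.88 ± 0.22 with UMIs summed per class, where 23.9% of all genes were called. Gabra3 averaged 9.21 ± 2.20 CPM in NF and 6.64 ± 2.20 in PEP neurons and was not called, with a log2 difference of -0.61 ± 0.42 (adjusted p = 0.186 by edgeR). This difference turned to 0.65 ± 0.23 with UMIs summed per class (adjusted p = 0.0204 by edgeR, under 2-fold), so no direction is given for Gabra3.

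Between PEP and NP neurons 3 of 6 members were called, all higher in PEP, against 19.6% of all genes called, 14.1% higher and 5.47% lower. They were Gabra3 (6.64 ± 2.20 against 0.0248 CPM), Gabrg1 (0.663 ± 0.378 against 0.0212 CPM) and Gabra5 (log2 1.07 ± 0.32, SE). The Gabra5 call was lost without library 1, 4 or 5 (log2 0.99, 0.93 and 0.92), and that of Gabrg1 without library 5, so that 1 of the 3 calls was left without library 5. Gabrb2 could not be fitted between both classes by edgeR, with PEP1_S100a11.Tagln2 at 0 UMIs. With DESeq2 it was called higher in PEP, but no size is given, because the mean of types includes that type at 0 UMIs. With summed UMIs it was higher in PEP by 4.43 ± 0.43, where 24.5% of all genes were called. Gabra2 differed by 0.77 ± 0.18, which is under 2-fold.

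Detection per cell put the 3 NF types in the same order for Gabrb2 as the summed counts did. A Gabrb2 UMI was found in 58 of 58 NF2_Ntrk2.Necab2 cells, in 92.2% of 180 NF_Calb1 cells and in 71.7% of 113 NF_Pvalb cells, at median depths of 96531, 77900 and 66720 UMIs. In satellite glia, taken here as the background, it was found in 1 cell (0.402% of 249) at a median depth of 17729 UMIs. At an equal depth of 10000 UMIs per cell, the shares were 72.5% in NF2_Ntrk2.Necab2, 45.6% in NF_Calb1, 27.5% in NF_Pvalb, 8.62% in Th and 0.230% in satellite glia. Gabrg1 was found at that depth in 26.4% of NF_Calb1, 20.7% of NF_Pvalb and 12.6% of NF2_Ntrk2.Necab2 cells, against 62.8%, 57.5% and 56.9% at full depth. Satellite glia held a Gabrg1 UMI in 0 of 249 cells, which allows a share of up to 1.20% of cells with a UMI at their depth and sets no limit on cells that express the gene.

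Gabrb2 and Gabrg1 occurred together in 107 of 180 NF_Calb1 cells (59.4%), 51 of 113 NF_Pvalb cells (45.1%) and 33 of 58 NF2_Ntrk2.Necab2 cells (56.9%). The product of the separate shares gave 57.9%, 41.2% and 56.9%. Gabra3 reached 22.8% of NF_Pvalb, 20.9% of Th and 18.4% of PEP3_Trpm8 cells at equal depth, against 74.3%, 65.1% and 44.6% at full depth. In Th neurons 84 of 232 cells held both Gabra2 and Gabra3.

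**Figure D3:**
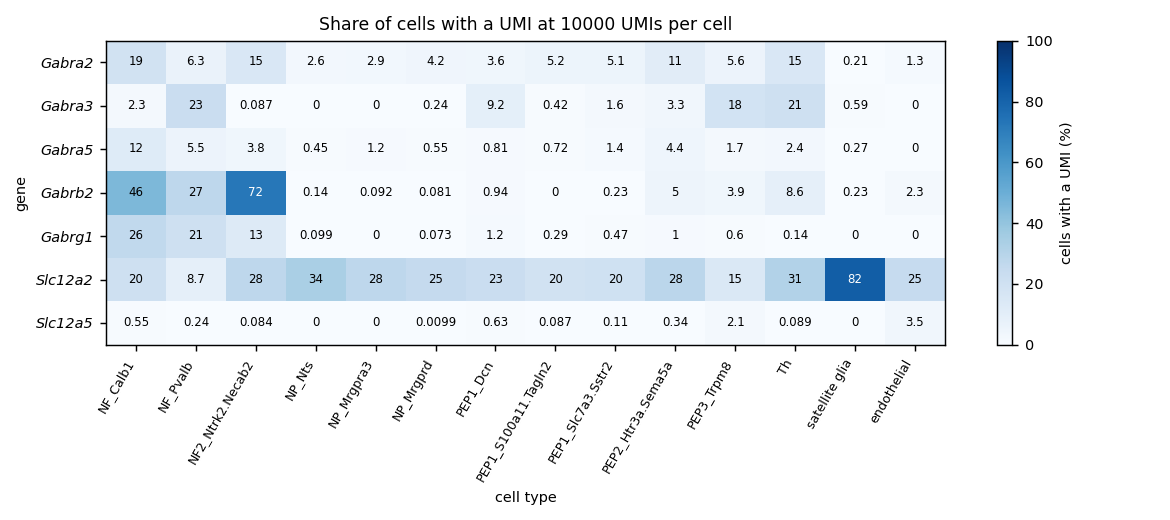
Share of cells with at least 1 UMI (percent, colour and number) for each gene (rows) in each type (columns) after every cell was drawn down to 10000 UMIs, with shallower cells left out. Gabrb2 reaches 72.5% in NF2_Ntrk2.Necab2 and Slc12a2 82.3% in satellite glia, while Slc12a5 stays at or below 3.50% everywhere.

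Slc12a2, the chloride importer, was measured in every type and was highest outside the neurons. Satellite glia held 189, 251, 211, 190 and 205 CPM (mean 209 ± 25.2), with 973 UMIs, and all 5 values stood above those of every other type. The call in satellite glia had a log2 difference of 3.11 ± 0.12 (SE). Against the mean of the 12 neuronal types, satellite glia were 8.10-fold higher, with 7.43-fold and 9.43-fold as the lowest and highest library (higher in 5 of 5 libraries, exact two-sided sign-flip permutation p = 0.0625, the smallest that 5 libraries allow). Endothelial cells held 34.3, 86.0, 25.8, 9.93 and 37.0 CPM from 41 UMIs, too wide a spread to set them apart from neurons.

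Among neurons Slc12a2 was flat compared with the receptor subunits. NP_Nts (37.8 ± 5.90 CPM), NP_Mrgpra3 (34.4 ± 9.26), Th (33.3 ± 6.96) and PEP2_Htr3a.Sema5a (32.9 ± 6.09) were at the top, NP_Mrgprd held 27.4 ± 2.53 CPM, and PEP3_Trpm8 17.5 ± 3.70. Among neurons, only the lowest step in the order, from PEP3_Trpm8 to NF_Pvalb, exceeded the SD of the paired difference. NF_Pvalb held 11.5, 11.9, 5.88, 9.34 and 5.79 CPM (mean 8.87 ± 2.94), the lowest of all types and below every library of the next type. It was called lower than the other cells by a log2 difference of -2.05 ± 0.18 (SE).

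As a class, NF neurons held 19.9 ± 0.944 CPM of Slc12a2 and NP neurons 33.2 ± 1.51 CPM, and the libraries of these means did not overlap. The NF types were not alike, with 8.87 ± 2.94 CPM in NF_Pvalb, 21.0 ± 3.20 in NF_Calb1 and 29.9 ± 4.28 in NF2_Ntrk2.Necab2. The last overlapped NP_Mrgprd at 27.4 ± 2.53 CPM. Between the NF and NP classes the log2 difference of -1.02 ± 0.10 (SE) just passed the 2-fold limit. It fell short of that limit with other size factors (-0.99), with DESeq2 (-0.99), without library 3 (-0.97) and with UMIs summed per class (-0.80). PEP neurons held 23.2 ± 2.47 CPM and differed from NF and from NP by less than 2-fold (log2 -0.42 ± 0.10 for NF against PEP and -0.59 ± 0.08 for PEP against NP). The 6 satellite glia markers moved between neuronal types too, from 32.5 to 350 CPM over the libraries of the NF types and from 30.5 to 636 over those of the NP types. They ran higher in some PEP types, from 156 to 1313 CPM in PEP1_S100a11.Tagln2 and from 30.0 to 657 in PEP3_Trpm8. Summed over all neurons together, they stood at 0.112% to 0.324% of their level in satellite glia. The highest single marker in any library stood at 0.761%, again over all neurons, so single types can lie above these shares. Their part in the Slc12a2 values of the neuronal types was not tested. Slc12a2 stood at 4.24% of its satellite glia level in NF_Pvalb and at 12.3% on average over the neuronal types. At equal depth it was found in 82.3% of satellite glia and in 8.74% to 33.8% of the cells of neuronal types. At full depth the share was 92.0% in satellite glia, at a median depth of 17729 UMIs. In neuronal types it ran from 37.2% in NF_Pvalb to 94.8% in NF2_Ntrk2.Necab2, at median depths of 66720 and 96531 UMIs. Levels in CPM are relative to all UMIs of a type and are not UMIs per cell.

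Slc12a5, the chloride exporter, was close to the limit of detection in every type. Only 43 UMIs were counted, of which 10 were in PEP3_Trpm8, 8 in PEP2_Htr3a.Sema5a, 7 in NF_Calb1, 6 in PEP1_Dcn and 4 in endothelial cells. PEP3_Trpm8 held 0, 2.93, 1.02, 2.76 and 1.24 CPM (mean 1.59 ± 1.24), and NF_Calb1 0.716, 0.665, 0.509, 0.587 and 0.208 CPM (mean 0.537 ± 0.200). NF_Calb1 was the only neuronal type with a UMI of Slc12a5 in every library. Endothelial cells had a higher mean of 6.08 ± 7.40 CPM from 3 cells with a UMI, and the neuronal markers summed to 326 to 1053 CPM over all endothelial cells of a library. Their part in the endothelial value was not tested. NP_Nts, NP_Mrgpra3 and satellite glia held no UMI, and no neighbours in the order differed beyond their spread.

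In PEP3_Trpm8 10 of 168 cells (5.95%) held a Slc12a5 UMI at a median depth of 30801 UMIs. In satellite glia 0 of 249 cells did at 17729 UMIs, which allows a share of up to 1.20% of cells with a UMI. At 10000 UMIs per cell the PEP3_Trpm8 share was 2.13%.

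The share of Slc12a5 in the UMIs of both cotransporters was 0.758% ± 0.261 in neurons, as the mean of library shares (SD, n = 5). Over all libraries the neuronal share was 0.637%, from 39 of 6126 UMIs. In satellite glia it was 0 of 973 UMIs over all libraries, which allows a share of up to 0.308%. No test is given for the difference, because a count of 0 in every satellite glia library fixes its sign. PEP3_Trpm8 reached 10.2% over all libraries (10 of 98 UMIs, exact Clopper-Pearson 95% interval 5.00% to 18%). NP_Mrgprd held 1 of 2509 UMIs. Intervals and limits of 3 counts cover counting error only.

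The other genes of the pathway described here were 71 in 9 lists. Of them 62 were in the matrix and 40 passed the filter. Of these 40, 16 were called higher and 4 lower in NF against NP, where 19.2% and 14.6% of all genes were. In NF against PEP 9 were higher and 4 lower, against 11.4% and 13.3% of all genes. In PEP against NP 11 were higher and 4 lower, against 14.1% and 5.47%. The median log2 difference over the list genes without types at 0 was 0.70 in NF against NP, 0.32 in NF against PEP and 0.32 in PEP against NP.

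Among the GABA-A subunits outside the members, Gabra4, Gabrb1 and Gabrd passed the filter, and each was highest in PEP3_Trpm8. Gabrb1, a beta subunit, held 51.1, 30.8, 32.6, 29.8 and 20.4 CPM there (mean 32.9 ± 11.2), followed by Th at 9.64, 11.1, 27.7, 7.99 and 7.29 CPM (mean 12.8), where library 3 was high. It was called higher in NF (3.32 CPM) and in PEP neurons (8.69 CPM) than in NP neurons (0.106 CPM). Gabrd, the delta subunit of tonic receptors, held 27.0, 29.3, 16.3, 21.6 and 19.2 CPM in PEP3_Trpm8 (mean 22.7 ± 5.42) and 6.47 ± 2.56 in PEP1_Slc7a3.Sstr2. It was called lower in NF (0.158 CPM) than in PEP neurons (6.25 CPM). Gabra4, an alpha subunit, held 8.48 ± 3.40 CPM in PEP3_Trpm8 and 5.26 ± 2.32 in NF_Calb1. It averaged 3.49 CPM in NF, 1.72 in PEP and 0 in NP neurons and was called higher in NF than in both, with 3 PEP types at 0 UMIs. Gabrg3, Gabrr1 and Gabrr2 had 11, 41 and 47 UMIs.

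**Figure D4:**
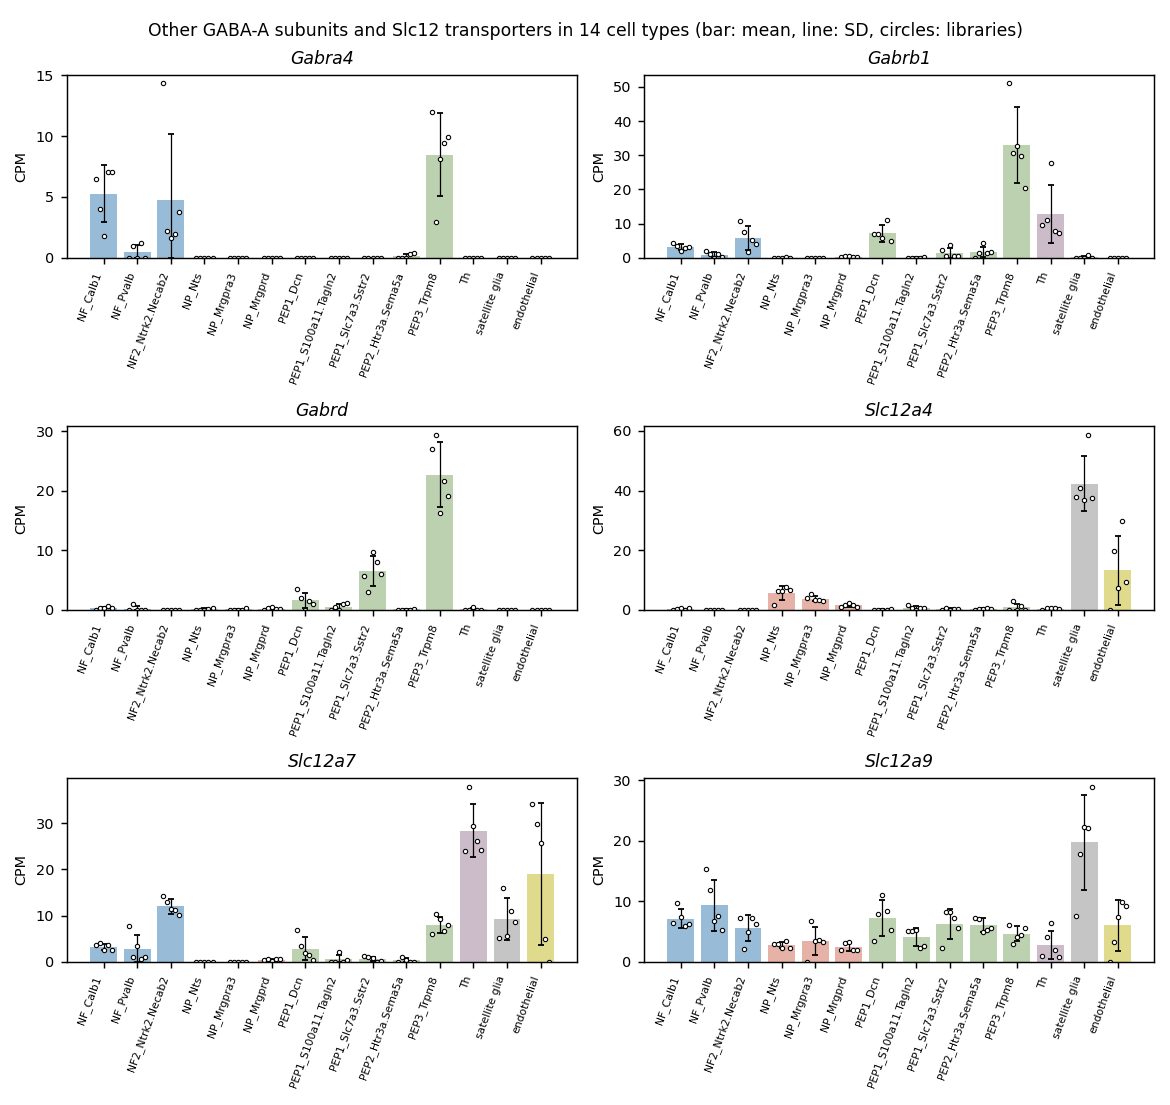
Level in CPM (vertical axes, linear) of 3 GABA-A subunits and 3 Slc12 transporters that are not members in the 14 types, with bars for the mean over 5 libraries, lines for 1 SD and circles for libraries. Gabra4, Gabrb1 and Gabrd are highest in PEP3_Trpm8 at 8.48, 32.9 and 22.7 CPM, Slc12a4 and Slc12a9 in satellite glia at 42.3 and 19.7 CPM, and Slc12a7 in Th at 28.4 CPM.

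Of the other Slc12 transporters described here, 3 were tested, of which 2 were called higher and 1 lower in NF against NP. Over all genes, 19.2% were called higher and 14.6% lower in that contrast. Slc12a7, a potassium-chloride exporter like Slc12a5, averaged 5.97 CPM in NF, 2.43 in PEP and 0.147 in NP neurons and was highest in Th at 28.4 ± 5.73 CPM. Slc12a4, another exporter, averaged 3.61 CPM in NP, 0.401 in PEP and 0.0838 in NF neurons, and 42.3 ± 9.23 CPM in satellite glia, the type of its highest level. Slc12a9 averaged 7.32 CPM in NF and 2.83 in NP neurons (log2 1.15 ± 0.20, SE). Of the kinases that regulate these transporters, 3 of 5 tested were called higher in NF than in NP neurons, against 19.2% of all genes. Wnk3 averaged 4.96 CPM in PEP and 0.0766 in NP neurons.

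Of the remaining lists, Car2, a carbonic anhydrase that supplies the bicarbonate GABA-A receptors also pass, averaged 183 CPM in NF, 14.9 in PEP and 1.78 in NP neurons. Car10, a related protein, averaged 51.8 CPM in NF and 12.7 in PEP neurons (log2 2.49 ± 0.16, SE). Abat, which breaks GABA down, was lower in NF than in NP neurons by a log2 difference of -1.53 ± 0.16 (SE). Ano3, a member of the anoctamin family, was lower in NF (48.1 CPM) and PEP (42.7) than in NP neurons (97.6), and Best1, a chloride channel, was lower in NF than in PEP neurons (-2.13 ± 0.34). Shisa7, a GABA-A receptor partner, averaged 0.244 CPM in NF and 2.81 in PEP neurons and was called lower in NF. Plcl1, which binds GABA-A receptor trafficking proteins, was lower in PEP than in NP neurons (-1.54 ± 0.40).

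The genes whose pattern over the 14 types was most like that of each member, by Pearson's r of log2(CPM + 1) over the 10084 or 10085 other genes with a mean of at least 5 CPM, are given as a description, since the types share libraries and depth. For Gabrb2 they were Htr1d (0.961), Atp2b2 (0.95) and Adcy1 (0.948), and for Gabrg1 Slc17a7 (0.965), Htr7 (0.948) and Esrrg (0.945). For Gabra2 they were Nsd1 (0.965), Scn7a (0.934) and Fbxo42 (0.928). The nearest genes to Gabra5 were Exoc4 (0.914), P2rx6 (0.908) and Rimkla (0.908), and to Gabra3 Asic1 (0.884), Hoxc8 (0.798) and Pcgf2 (0.798). Slc12a2 was nearest to Vkorc1 (0.903), Wdr1 (0.901) and E2f5 (0.900), and the few UMIs of Slc12a5 to Ramp3 (0.892), Snhg8 (0.879) and Ppp1cc (0.870).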

How the data were processed

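Dorsal root ganglion cells of 5 samples were measured by droplet 3′ single-cell RNA-seq. The deposited matrix holds raw UMI counts per gene and cell, made by the authors with Cell Ranger v2.0.0 against mm10 and its UCSC gene model. The authors selected, integrated and clustered the cells with Seurat, and their annotation was used unchanged, with NF_Ca1b1 written as NF_Calb1. The authors kept the load per lane low against doublets, and doublets were not called again. The 7 genes and the pathway lists were chosen with earlier results of these data known. No cell was removed, though 188 had over 10% mitochondrial UMIs by 37 mitochondrial rows. The 4 rows that are not mouse genes, with 143 UMIs, were left out.

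UMIs were summed per type and library in Python 3.11.15. Each type (5 sums against 5 sums of the other cells) and the classes (60 sums) were compared in R 4.3.3 by the quasi-likelihood test of edgeR 4.0.16, after filterByExpr and TMM, with Benjamini-Hochberg adjustment over all genes tested. In simulated data with 200 genes changed 4-fold, 100% were recovered in each of 4 comparisons, with at most 1 false call. The changed genes were drawn only from those with over 5 expected UMIs in the smallest sum, at 1 fixed dispersion. Recovery of genes with fewer UMIs, as several members have in many sums, was therefore not measured. Both sums of a library come from 1 mouse, so the libraries pair them. After removal of group means, their correlation across genes lay between -0.00827 and 0.409. A block for the library was an alternative, as were RLE factors, DESeq2 1.42.0, leaving out the filter, a minimum of 10 cells per sum, cells with at most 10% mitochondrial UMIs, an adjusted p under 0.05, a UMI in at least 25% of the cells of the higher group, and leaving out each library. Detection at equal depth is the exact expected share of cells with a UMI after drawing 10000 UMIs, or 5000 as an alternative.

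Libraries hold 13050375 to 88886919 UMIs, so library 1 gives the least precise values. The genes named were the members, the 3 genes most alike to each among those with a mean of at least 5 CPM, the 3 list genes of largest change per contrast and direction, and remaining GABA-A subunits. Some list genes, and the subunit shares that need them, are not reported here. Slc12a9 and Gm9962 were named after their values were seen. Gene positions are from GENCODE on GRCm38, and the chromosome and strand of 7 of 7 genes equalled those in the matrix. Gabra6, Gabre, Gabrp, Gabrq, Gabrr3, Slc32a1, Clcn4, Glra3 and Glra4 were not analysed here. Libraries could not be matched to sample labels, and the sources used here name no batches, so mouse and batch cannot be told apart.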

Additional observations from a re-analysis of the deposited data

Results flagged for a closer look

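Of 50 combinations of gene and type with at least 15 UMIs, 6 had 1 library far from the other 4 by Dixon's ratio at the 95% level, where chance flags about 1 in 20. Gabra2 in NF2_Ntrk2.Necab2 was 46.6 CPM in library 1, from 13 UMIs in 3 cells, against 10.8 to 18.5 in the others. Gabrg1 in the same 3 cells was 21.5 CPM, from 6 UMIs, against 11.4 to 13.8. Slc12a2 in NP_Mrgpra3 was 50.9 CPM in library 1, from 26 UMIs in 4 cells, against 29.6 to 31.5, and the mean without it was 30.3 CPM. Gabra5 in PEP1_Slc7a3.Sstr2 was 4.52 CPM in library 1, from 4 UMIs in 16 cells, against 0.650 to 1.49. Gabra5 in NP_Mrgprd was 1.07 CPM in library 3, from 8 UMIs in 83 cells, against 0.415 to 0.546. Slc12a2 in PEP1_Slc7a3.Sstr2 was low in library 3, at 11.2 CPM from 15 UMIs in 33 cells, against 20.3 to 22.7. Library 1, the smallest of the 5, accounts for 4 of the 6 values.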

How the results depend on the processing

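Of the 50 called pairs of gene and type, 41 had the same call in every refit and 9 did not, and 17 also kept it with a UMI required in at least 25% of the cells of the higher group. Leaving out each library gave 14 to 17 pairs called higher, 29 to 31 called lower, 5 to 6 members called in NF against NP, 4 in NF against PEP and 1 to 3 in PEP against NP. With that requirement, 4 pairs were called lower in place of 33. The 17 pairs called higher all met that rule. With the replicate block for the library, 17 pairs were higher and 31 lower, and the calls lost were Gabra2 in PEP1_Dcn (-0.97) and Gabrb2 in endothelial cells (-2.19). Gabrg1 in PEP1_Dcn was lost without library 5 (-1.83), Gabra3 in PEP1_Slc7a3.Sstr2 without library 1, 2, 3 or 4 (-1.18 to -0.94), and Gabra5 in satellite glia without library 2 or 5 and with DESeq2. Gabra3 in NF against PEP reversed to 0.65 with UMIs summed per class from -0.61, and the cause was not tested. At 5000 UMIs per cell the shares of cells with a UMI fell, as fewer UMIs were drawn, to 10.7% for Gabra2 in NF_Calb1, 12.2% for Gabra3 in NF_Pvalb, 6.4% for Gabra5 in NF_Calb1, 48.0% for Gabrb2 in NF2_Ntrk2.Necab2, 15.7% for Gabrg1 in NF_Calb1 and 61.7% for Slc12a2 in satellite glia. Depth limits low values, since 3 UMIs are worth 0.656 CPM in satellite glia and 3.19 CPM in endothelial cells, and Slc12a5 had 43 UMIs in all.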
